A study of Mus musculus with 8 samples.

Results

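Mitochondrial ribosomal protein genes were followed in the hippocampal transcriptome of wild-type and Mbd2-/- mice. They were chosen by symbol, as every gene of the table whose name begins with Mrpl or Mrps and a number, and 77 of the 19201 genes listed met that rule, 48 named Mrpl for the large subunit and 29 named Mrps for the small subunit. All 77 passed the minimum of a mean normalized count of 10 and were tested. Mrpl12 is taken as their marker.

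Mitochondria keep their own ribosome, the mitoribosome, which makes only the few respiratory chain subunits that are encoded by mitochondrial DNA. Its ribosomal RNAs come from mitochondrial DNA, whereas every one of its proteins is encoded in the nucleus, translated in the cytosol and imported. Part of these proteins descend from bacterial ribosomal proteins, and the others were added during the evolution of mitochondria. Neurons depend on oxidative phosphorylation for synaptic transmission and ion pumping.

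RNA-seq was made from 8 libraries, 4 of wild-type C57BL/6 mice and 4 of Mbd2-/- mice on the same background, a constitutive deletion of the methyl-CpG-binding protein Mbd2 in every tissue. Both groups were 10 to 12 weeks old, the animals were littermates of heterozygous parents, and each library pooled the hippocampi of 2 mice, so that a p-value measures the spread between pools and not between animals. The comparison asks how gene expression in the hippocampus differs when Mbd2 is missing. Between 8439570 and 23790825 reads fell on genes in the wild-type libraries and between 8087750 and 14020765 in the Mbd2-/- libraries.

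Mbd2 itself, whose first exon is left intact in this line, was at 346 ± 34.4 (SD, n = 4) normalized counts in wild-type and at 260 ± 54.3 (SD, n = 4) in Mbd2-/- libraries, and the genotypes overlapped because Mbd2-/- replicate 3 stood at 339 and wild-type replicate 1 at 295 (log2 fold change -0.43, limma adjusted p = 0.017, two-sided exact permutation p = 0.0571). All 7 hippocampal neuron markers were present in every library, and their summed count was 93418 to 98680 in wild-type and 106850 to 110594 in Mbd2-/- libraries. Their median log2 fold change was -0.07, so the typical marker did not share the higher sum. Markers of neighbouring tissue moved with genotype. All 12 choroid plexus markers were higher in Mbd2-/- (summed count 46315 to 52932 against 23975 to 25615), and 9 of 10 thalamus markers were lower (3835 to 4646 against 5667 to 5859), with no marker of either list at 0 in any library. Of the neuron markers 1 was called higher and 2 lower, and of the oligodendrocyte, astrocyte, microglia and endothelium markers 4 of 6, 4 of 5, 3 of 5 and 2 of 4 were called higher. Their part in the results below was not tested. In such bulk tissue, fewer cells of a type and less RNA per cell cannot be told apart.

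Mitochondrial ribosomal protein transcripts were higher in the Mbd2-/- hippocampus by a small amount. Of the 77 genes, 42 (54.5%) were called higher and 0 lower by limma at an adjusted p of 0.05, where 12.0% of the 14504 genes tested were called higher and 10.0% lower. With a trend on transcript length removed from each library, 12 were called higher, with a median log2 fold change of 0.08 or 0.13 by the measure of length, as described further on. Over all genes 7.96% or 7.97% were called higher in those fits. The log2 fold change, Mbd2-/- minus wild-type on the log2(normalized count + 1) scale, was positive in 75 of the 77, with a median of 0.27 (1.2-fold) beside a median of -0.00 over all genes tested. None was lower even at an unadjusted p of 0.05 by limma, edgeR or DESeq2, and 52 were higher at that level by limma. In 32 genes (41.6%) every Mbd2-/- library lay above every wild-type library, which was so for 12.1% of all genes tested.

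As a share of all reads on genes, the 77 together took 0.159%, 0.169%, 0.160% and 0.165% in wild-type replicates 1 to 4 and 0.208%, 0.195%, 0.201% and 0.176% in Mbd2-/- replicates 1 to 4. The genotypes did not overlap in this share, and Mbd2-/- replicate 4 lay nearest to wild-type. The increase was small for each gene: called genes ranged from a fold change of 1.16 to 1.71, only 4 exceeded 0.5 on the log2 scale, and none passed limma's test of a change beyond 1.2-fold (smallest adjusted p 0.116), in which 8 had an unadjusted p under 0.05 and 0.365% of all genes tested were called higher. The number called also depended on single libraries, since leaving out wild-type replicate 1, wild-type replicate 3 or Mbd2-/- replicate 1 brought it to 25, 25 and 22, while 19 of the 42 were called in all 8 fits that left out 1 library. These counts were not set beside the share of all genes called in the same fits. The drop was therefore not shown to be particular to these genes.

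**Figure D1:**
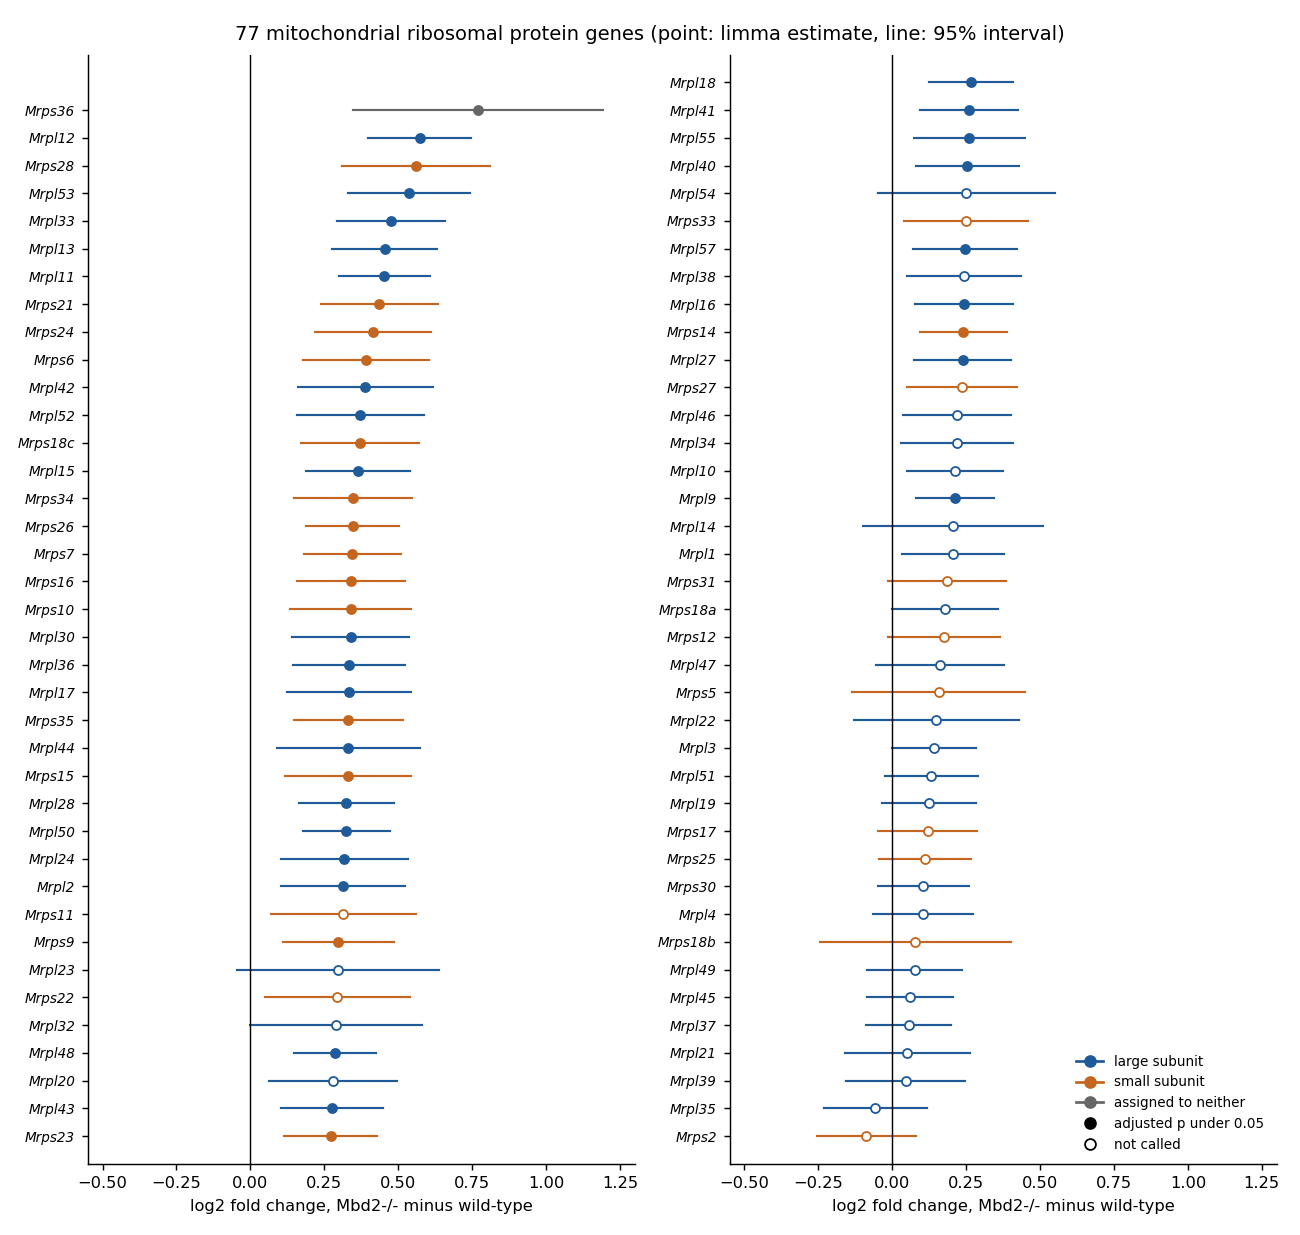
Log2 fold change (Mbd2-/- minus wild-type) of each of the 77 genes with its 95% interval from limma, ordered by size from the upper left, with large subunit genes in blue, small subunit genes in orange and Mrps36 in grey. Filled points mark the 42 genes with an adjusted p under 0.05, and the estimates of only 2 genes, Mrpl35 and Mrps2, lie below 0.

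Mrpl12 (bL12m; chr11:120345927-120350379, plus strand, mm9) forms the flexible stalk of the large subunit, which recruits translation factors, and is also known to bind the mitochondrial RNA polymerase. It was at 544, 549, 634 and 567 normalized counts in wild-type replicates 1 to 4 and at 864, 868, 977 and 718 in Mbd2-/- replicates 1 to 4. All 4 Mbd2-/- libraries lay above all 4 wild-type libraries, with replicate 4 the lowest of them. The group means were 573 ± 41.3 (SD, n = 4) and 857 ± 106 (SD, n = 4), a log2 fold change of 0.57 ± 0.08 (SE; limma adjusted p = 0.00028), and a two-sided exact permutation test gave p = 0.0286, the smallest that 70 divisions of 4 against 4 libraries allow.

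The stalk base is built from Mrpl11, which contacts the ribosomal RNA, and Mrpl10, to which the Mrpl12 copies attach. Mrpl11 was at 402, 412, 361 and 407 in wild-type and at 562, 593, 510 and 505 in Mbd2-/- libraries, again without overlap (log2 fold change 0.45 ± 0.07 SE, limma adjusted p = 0.00058). Mrpl10 was at 559, 634, 560 and 598 in wild-type and at 721, 747, 676 and 587 in Mbd2-/- libraries. Here Mbd2-/- replicate 4 fell within the wild-type range, and the difference of 0.21 ± 0.08 (SE) was not called (limma adjusted p = 0.055, 0.044 with the replicate number as a block and 0.00086 without Mbd2-/- replicate 4).

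**Figure D2:**
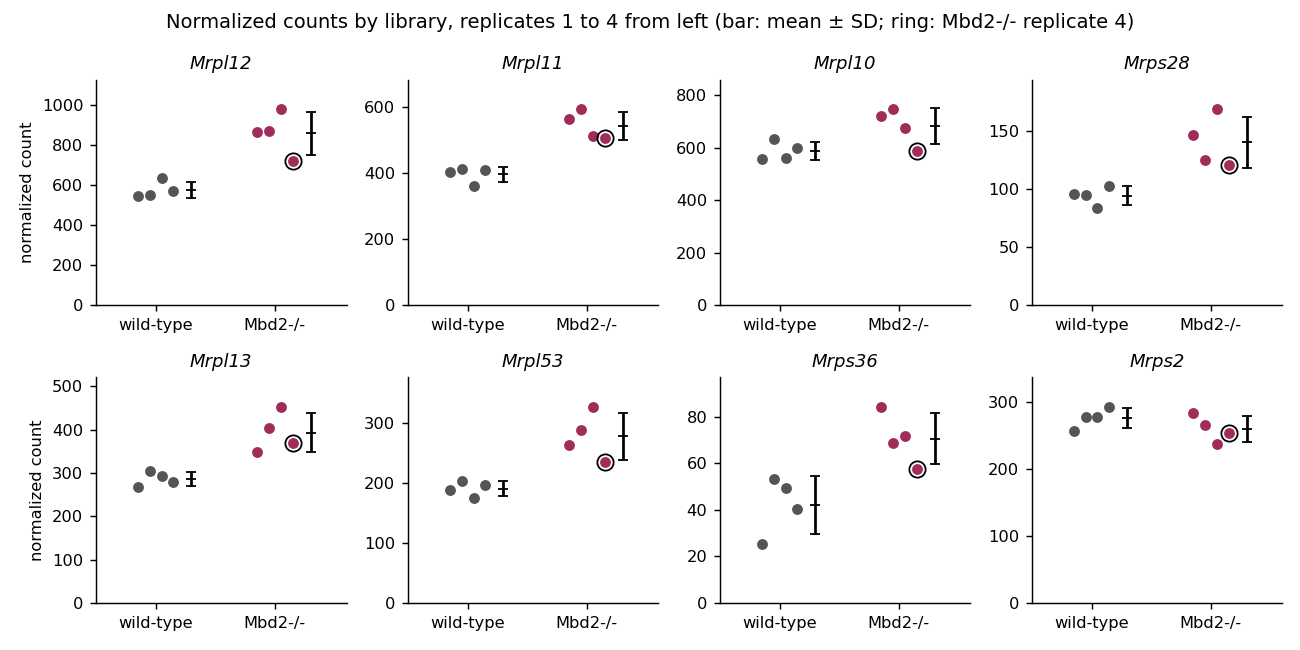
Normalized counts in each library for 8 genes, replicates 1 to 4 from left to right within each genotype, with mean ± SD of 4 libraries beside the points and Mbd2-/- replicate 4 ringed. Mrpl12, Mrpl11, Mrps28, Mrpl13, Mrpl53 and Mrps36 show no overlap of the genotypes, Mrpl10 and Mrps2 overlap, and vertical axes start at 0 and differ between panels.

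The largest fold change was that of Mrps36, a gene named for the small subunit whose product is now known as a subunit of the 2-oxoglutarate dehydrogenase complex of the citric acid cycle and is placed in neither ribosomal subunit here. It was at 25.5, 53.4, 49.2 and 40.4 in wild-type and at 84.3, 68.6, 71.7 and 57.7 in Mbd2-/- libraries. The groups did not overlap, but the counts were low and the estimate wide (log2 fold change 0.77, 95% interval 0.35 to 1.19, limma adjusted p = 0.012), and without Mbd2-/- replicate 1 the adjusted p was 0.051.

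After Mrps36 and Mrpl12 came Mrps28 (bS1m, small subunit), at 95.9, 94.8, 83.9 and 103 in wild-type and 147, 125, 169 and 121 in Mbd2-/- libraries (log2 fold change 0.56 ± 0.12 SE, limma adjusted p = 0.0037). Mrpl53, a large subunit protein without a bacterial counterpart, was at 189, 202, 174 and 197 against 263, 288, 327 and 234 (0.54 ± 0.10 SE, limma adjusted p = 0.0014). Both genes had every Mbd2-/- library above every wild-type library. Mrpl33 (bL33m) was at 244, 223, 200 and 236 against 314, 294, 354 and 295, a log2 fold change of 0.48 ± 0.09 (SE, limma adjusted p = 0.0014). Mrpl13 (uL13m) was at 267, 305, 293 and 279 against 349, 403, 453 and 369, a log2 fold change of 0.45 ± 0.08 (SE, limma adjusted p = 0.0016). These 4 genes were called in all 8 fits that left out 1 library, and Mbd2-/- replicate 4 was not the lowest Mbd2-/- library for Mrpl33 or Mrpl13.

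At the other end, Mrps2 (uS2m), a small subunit protein of bacterial descent, had the lowest estimate. It was at 256, 278, 278 and 293 in wild-type and 283, 266, 237 and 254 in Mbd2-/- libraries, and the groups overlapped (log2 fold change -0.09, 95% interval -0.25 to 0.08). Mrpl35 (bL35m) gave -0.06 with an interval of -0.23 to 0.12. Intervals for the other 4 of the 6 lowest estimates also held 0: Mrpl39, related to threonyl-tRNA synthetase, at 0.05 (-0.15 to 0.25), Mrpl21 at 0.05 (-0.16 to 0.26), Mrpl37 at 0.06 (-0.09 to 0.20), and Mrpl45, which anchors the mitoribosome at the inner membrane, at 0.06 (-0.09 to 0.21).

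Counts also show how unequally the transcripts of one particle were represented. Per kb of the longest annotated transcript, the mean over all 8 libraries ran from 33.6 to 639 normalized counts. Mrpl52 (639), Mrpl41 (588), Mrpl11 (571) and Mrpl12 (543) stood highest, and Mrpl47 (33.6), Mrps35 (34.6), Mrps10 (42.4) and Mrps5 (48.5) lowest, although the longest transcript need not be the one expressed. Among the highest 4, all were called higher in Mbd2-/-, Mrpl52 and Mrpl41 with 0.37 and 0.26 (limma adjusted p = 0.016 and 0.025). Among the lowest 4, Mrps10 (0.34, limma adjusted p = 0.020) and Mrps35 (0.33, limma adjusted p = 0.014) were called, and Mrpl47 (0.16) and Mrps5 (0.16) were not. With 1 library left out, the call of Mrpl41 held in 2 fits, those lacking wild-type replicate 2 and Mbd2-/- replicate 4. With the longest-transcript trend removed the estimates of Mrpl52 and Mrpl41 turned to -0.04 and -0.04, and both calls were lost with either length trend removed. The call of Mrpl52 was also lost when wild-type replicate 3 or either of Mbd2-/- replicates 1 and 2 was left out. That of Mrps10 was lost when wild-type replicate 1 or either of Mbd2-/- replicates 1 and 3 was left out (limma adjusted p 0.051 to 0.091 in these fits). With the median coding trend removed Mrps10 and Mrps35 were not called (0.18 and 0.18, limma adjusted p = 0.184 and 0.177). Both calls held with the longest-transcript trend removed.

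Genes of both subunits were called higher in Mbd2-/-, in similar shares. By symbol, 26 of 48 Mrpl genes (median log2 fold change 0.26) and 16 of 29 Mrps genes (0.30) were called higher, and none of either was called lower, where 12.0% of all genes tested were called higher and 10.0% lower. With the longest-transcript trend removed 7 Mrpl and 5 Mrps genes were called higher, and with the median coding trend removed 8 and 4. Over all genes 7.96% and 7.97% were called higher in these fits. Structures of the mitoribosome place the products of Mrps30 (mL65) and Mrps18a (mL66) in the large subunit. With these moved and Mrps36 left out, 26 of 50 large subunit genes (median 0.25) and 15 of 26 small subunit genes (median 0.31) were called higher, so that the medians differed by 0.05. The calls moved with single libraries. Mrpl calls numbered 13, 12 and 15 when wild-type replicate 1, 3 or 4 was left out and 12 and 15 when Mbd2-/- replicate 1 or 2 was, and Mrps calls fell to 10 in the absence of Mbd2-/- replicate 1. The share of all genes called in the same fits was not set beside them.

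The mean of the large subunit genes minus that of the small subunit genes, each relative to wild-type on the log2 scale, was 0.023, -0.025, 0.003 and -0.000 in wild-type replicates 1 to 4 and -0.066, -0.006, -0.000 and -0.032 in Mbd2-/- replicates 1 to 4. The genotypes overlapped in this difference, and in Mbd2-/- replicate 1 the small subunit lay further above the large than in any wild-type library. Replicate 4 did so by this assignment but not by symbol (-0.033 in both Mbd2-/- replicate 4 and wild-type replicate 2).

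**Figure D3:**
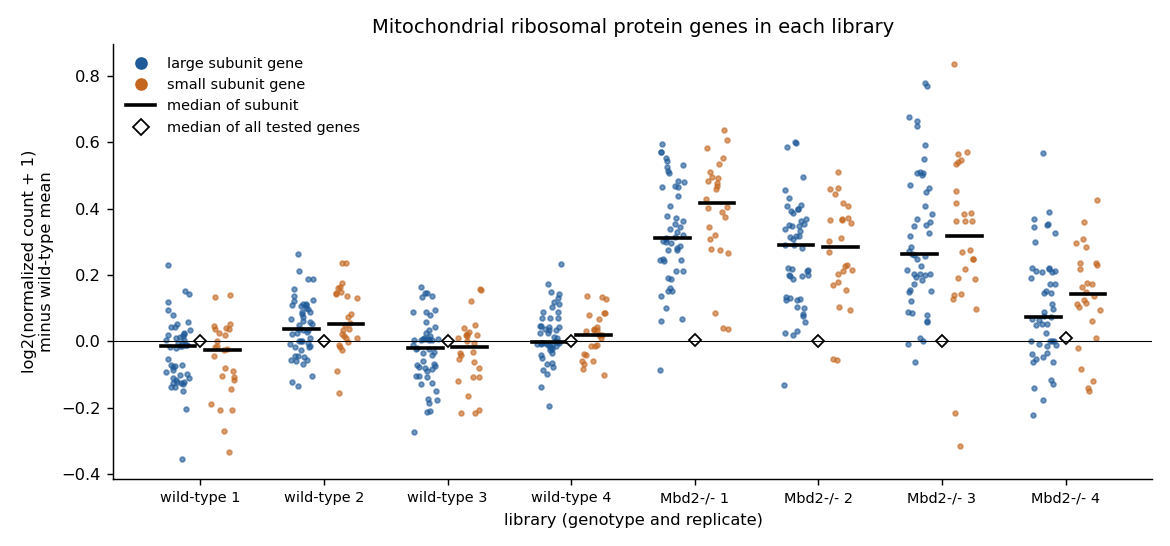
Log2(normalized count + 1) of each large subunit (blue) and small subunit (orange) gene in each library, relative to that gene's wild-type mean, with a bar at the median of each subunit and a diamond at the median of all 14504 genes tested. Both subunits stand above 0 in every Mbd2-/- library, least in replicate 4, while the median of all genes stays near 0.

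Among 6 functional districts of the particle, each held called genes with no length term, at shares to be read against the 12.0% of all genes tested. In the stalk 2 of 3 genes were called, around the peptidyl transferase centre, where peptide bonds form, 3 of 4, and in the central protuberance at the top of the large subunit 3 of 5. Around the exit tunnel, through which the new chain leaves, 2 of 6 were called. In the small subunit head, which moves with the tRNAs, 6 of 8 were called, and in the body, which holds the decoding centre, 5 of 9. Sorted by the first letter of the uniform name, genes with a bacterial counterpart (u or b, 27 of 46 called, median 0.29) and genes particular to mitochondria (m, 14 of 30 called, median 0.25) were likewise both represented. Mrps18a and Mrps18b carry m names and fall in the latter group, although they are relatives of bacterial S18. With either length trend removed, none of the 4 peptidyl transferase centre genes or the 9 body genes was called higher, and 1 of the 5 central protuberance genes was with the longest-transcript trend removed and 0 with the median coding trend removed. In the same order, calls came to 4 and 2 of 8 in the head, 1 and 2 of 3 in the stalk and 1 and 1 of 6 around the exit tunnel. Genes with a bacterial counterpart came to 8 and 9 of 46 (medians 0.08 and 0.16), and genes particular to mitochondria to 4 and 3 of 30 (0.06 and 0.12). All counts with a length trend removed are to be read against the 7.96% and 7.97% of all genes called higher in the same fits. These groups are small, share their libraries and were not compared by a test.

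Bacterial protein S18 has 3 relatives in the mitoribosome. Mrps18c (bS18m), at 162, 193, 167 and 177 in wild-type and 229, 226, 255 and 197 in Mbd2-/- libraries, showed no overlap and was called (0.37 ± 0.09 SE, limma adjusted p = 0.011). That call was lost with the longest-transcript trend removed (0.08, limma adjusted p = 0.59) and with the median coding trend removed (0.16, limma adjusted p = 0.22). Mrps18a, at 367, 381, 379 and 331 against 469, 400, 435 and 355, overlapped through Mbd2-/- replicate 4 (0.18 ± 0.09 SE, limma adjusted p = 0.14, and 0.0090 without that library). Mrps18b (mS40), at 86.9, 91.0, 97.5 and 83.4 against 125, 111, 71.7 and 80.7, had Mbd2-/- replicates 1 and 2 above and replicates 3 and 4 below all wild-type libraries (0.08, 95% interval -0.25 to 0.40). The difference between these paralogs was not tested. Mrps30, the other large subunit protein with a small subunit name, gave 0.11 (95% interval -0.05 to 0.26).

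The 4 Mbd2-/- libraries did not share the increase equally. Relative to the wild-type mean, the median of the 77 genes was 0.35, 0.29, 0.27 and 0.11 in Mbd2-/- replicates 1 to 4, against -0.02, 0.05, -0.02 and 0.01 in wild-type replicates 1 to 4. The number of genes above all wild-type libraries was 71, 66, 64 and 38 in the same order, and for replicate 4 another 33 of the 77 lay within the wild-type range. Over all genes tested, 34.0%, 32.2%, 35.2% and 32.9% lay above all wild-type libraries, so that replicate 4 did not stand apart by that count. It did stand apart by its distance from the other Mbd2-/- libraries over 12164 genes, 4.48 to 6.45 times the counting variance, with 1.74 to 2.33 among replicates 1 to 3 and 1.51 to 2.49 among wild-type libraries. Replicate 4 was the lowest Mbd2-/- library in 55 of the 77 genes (71.4%) and the highest in 3. Over all genes tested it was the lowest in 35.9% and the highest in 4741 of 14504. Raised genes in general also had a low replicate 4. Of the 2596 genes called higher when it was left out, it was the lowest in 73.3%, and of the 55 mitoribosomal genes among them in 81.8%, with medians of 0.14 and 0.15 relative to the wild-type mean on the log2 scale. Choosing genes by the other 3 libraries itself raises these shares, and the low values of replicate 4 were not shown to be particular to mitoribosomal genes.

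Without Mbd2-/- replicate 4, 55 genes were called higher (71.4%) and 0 lower by limma, with a median of 0.32, where 17.9% of all genes tested were called higher.

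Among single genes, the gap between replicate 4 and the nearest other Mbd2-/- library was widest for Mrpl14 (uL14m, 107 against 150 to 172), Mrpl44 (mL44, 215 against 292 to 339) and Mrpl52 (mL52, 244 against 312 to 319). Mrpl14, at 103 to 150 in wild-type, was not called with all libraries (0.21, limma adjusted p = 0.325) and was called without replicate 4 (limma adjusted p = 0.022). Mrpl44 was called at a limma adjusted p of 0.049, and that call was lost without any 1 of the other 7 libraries (limma adjusted p 0.059 to 0.14) and stood at 0.00014 without replicate 4. With all libraries kept it was also lost with no filter on low values (limma adjusted p = 0.058), TMM or upper-quartile scaling (0.0502 and 0.055), no trend or robust moderation (0.12), voom (0.068), and either length trend removed (0.15, adjusted p = 0.30, and 0.22, adjusted p = 0.15). Replicate 4 was the highest Mbd2-/- library only for Mrpl1 (261 against 223 to 234), Mrps27 (251 against 223 to 244) and Mrpl42 (289 against 217 to 285). Of these 3, Mrpl42 was called (0.39, limma adjusted p = 0.017), and lost its call when wild-type replicate 1 or 3 or the first Mbd2-/- library was left out (limma adjusted p 0.064 to 0.072). The call was also lost with the longest-transcript trend removed (0.06, limma adjusted p = 0.81) and with the median coding trend removed (0.18, limma adjusted p = 0.31).

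Choroid plexus, thalamus, oligodendrocyte and microglia markers were also shifted less in replicate 4 than in the other Mbd2-/- libraries. Its summed choroid plexus count was 46315, with 50758 to 52932 in replicates 1 to 3, and its summed thalamus count 4646, with 3835 to 4179 in the others. Oligodendrocyte markers summed to 88504 in replicate 4, 92704 to 94759 in replicates 1 to 3 and 74895 to 76179 in wild-type, and microglia markers to 3981, 4295 to 4547 and 3537 to 3742. Astrocyte markers hardly differed, at 25219 in replicate 4 and 25389 to 25611 in replicates 1 to 3. Neuron markers in replicate 4 (108119) lay within the range of replicates 1 to 3 (106850 to 110594). Endothelium markers went the other way, highest in replicate 4 at 1957, with 1755 to 1907 in replicates 1 to 3 and 1654 to 1770 in wild-type. The part of these tissues and cell types in the mitoribosomal difference was not tested.

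Transcript length also moved with these differences. The 77 genes have short transcripts, with a median longest transcript of 1316 bases against 3187 over all genes tested, and short transcripts in general were higher in Mbd2-/-. Spearman's rho between log2 fold change and length was -0.46 across 14186 genes and -0.30 across the 77, descriptions across genes that share the same 8 libraries. By library, the rho across all genes for the difference from wild-type was -0.48, -0.43 and -0.48 in Mbd2-/- replicates 1 to 3 and -0.10 in replicate 4. Replicate 4 was also the Mbd2-/- library in which the median of the 77 genes lay least above the wild-type mean (0.11).

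Within ranges of length, more mitoribosomal genes than other genes were called higher. Under 1000 bases these were 65.2% of 23 mitoribosomal genes and 41.8% of 736 others, and from 1000 to 1500 bases 57.9% of 19 and 29.4% of 1127. From 1500 to 2500 bases the shares were 41.2% of 17 and 16.1% of 2944, and from 2500 to 5000 bases 53.3% of 15 and 7.53% of 6480. Above 5000 bases 1 of 3 was called, with 2.66% of the others. The longest annotated transcript can be far from typical (6008 bases for Mrpl13, whose median coding transcript has 687), and sorted by the median coding transcript the shares were 65.8% of 38 against 31.3%, 50.0% of 18 against 22.7%, 41.7% of 12 against 10.9%, 3 of 8 against 5.30%, and 0 of 1 against 2.63%.

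**Figure D4:**
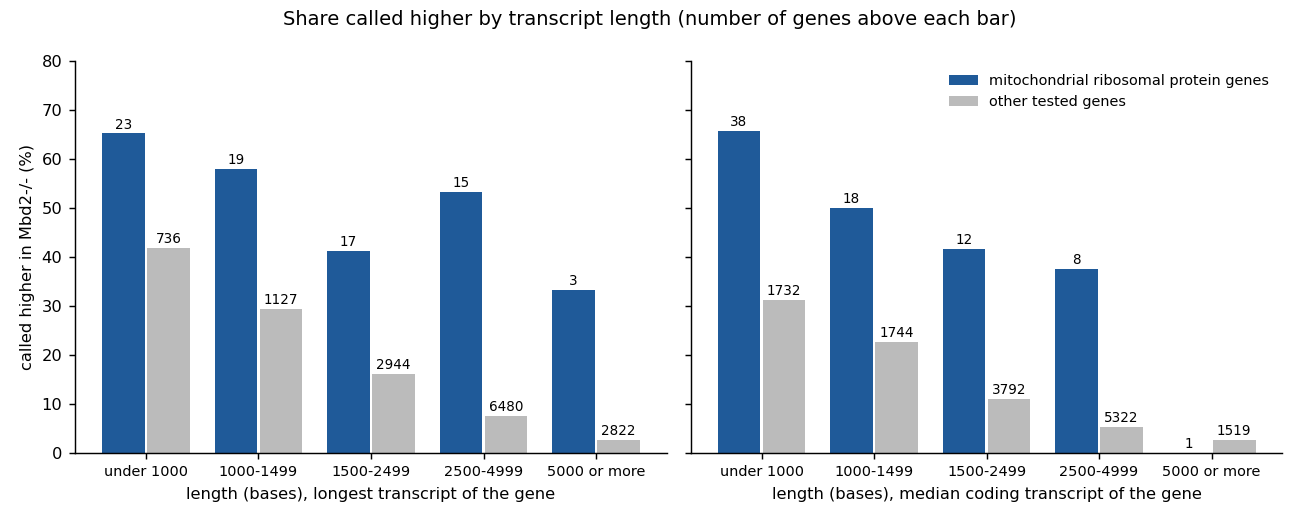
Percent of genes called higher in Mbd2-/- by limma in 5 ranges of transcript length in bases, for mitoribosomal genes (blue) and all other genes tested (grey), with the number of genes above each bar; length is the longest transcript on the left and the median coding transcript on the right. Grey falls with length in both panels, blue is highest under 1000 bases, and blue exceeds grey in each range that holds more than 1 mitoribosomal gene.

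When the trend with length was removed from each library before the fit, most calls were lost. With the longest transcript, 12 of the 77 (15.6%) were called higher and 0 lower by limma, the median was 0.08, and 7.96% of all genes were called higher. With the median coding transcript, an alternative chosen after seeing the data, again 12 (15.6%) were higher and 0 lower, the median was 0.13, and 7.97% of all genes were higher. Only 7 genes were called both ways, all of which were called with no length term: Mrpl12, Mrpl13, Mrpl15, Mrpl17, Mrpl50, Mrps7 and Mrps26. Mrpl12 kept a log2 fold change of 0.38 (limma adjusted p = 0.000725) with the longest and 0.45 (0.00038) with the median coding transcript. Mrps36 was lost in both (limma adjusted p = 0.12 and 0.054), Mrpl11, Mrps28 and Mrpl53 with the longest transcript only (0.16, 0.12 and 0.105), and Mrpl33 with the median coding transcript only (0.068). What moves short transcripts in these libraries was not tested.

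Annotated exons of 26 of the 77 genes overlap those of another gene, and the sources used here do not say whether reads were counted by strand, so these values are uncertain. The overlap was 87.1% of exonic bases for Mrpl53 with Ccdc142 on the same strand (Ccdc142 log2 fold change -0.20, not called), 63.4% for Mrps34 with Mapk8ip3 (-0.22, called lower), 37.0% for Mrps34 with Nme3 on the same strand (0.36, called higher, as Mrps34 was with 0.35), 53.7% for Mrps25 with Nr2c2 and 43.8% for Mrps6 with Slc5a3. Of the 51 genes without any overlap, 27 were called higher, with a median of 0.26, where 12.0% of all genes tested were called higher.

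Promoters of these genes were searched because 42 of the 77 were called higher and 0 lower, where 12.0% of all genes tested were called higher. RefSeq gave a window of 250 bases before to 50 bases after the start (GRCm38.p6) for 68 of the 77. Motifs of factors known to act on nuclear genes for mitochondrial proteins were searched on both strands: the NRF1 core GCGCATGC, the ETS motif CCGGAAG read by GABPA, and AAGATGG for YY1. The NRF1 core was in 8 windows (11.8%, against 2.80% of all 27025 windows), the ETS motif in 24 (35.3% against 9.12%), YY1 in 13 (19.1% against 6.48%), and at least 1 of them in 36 (52.9% against 17.0%). Among the 11014 tested genes with a window the shares were 5.18%, 16.4%, 6.95% and 25.9%. Of the 37 called genes with a window 18 held a motif, and the median log2 fold change was 0.26 in genes with and 0.27 in genes without one.

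Shown here are the 150 bases before the start, 5′ to 3′ on the strand of the gene, for the marker gene, for the highest changed genes with a motif there, and for Mrpl52, which had most reads per kb. Capitals mark a searched motif in either orientation. Mrpl12 (chr11:120484487-120484636, plus strand, GRCm38.p6) holds none of these letters, Mrpl53 (chr6:83108958-83109107, plus strand) holds the ETS motif in both orientations, Mrpl33 (chr5:31613801-31613950, plus strand) the NRF1 core, and Mrpl52 (chr14:54426759-54426908, plus strand) YY1 and, in reverse, ETS.
Mrpl12: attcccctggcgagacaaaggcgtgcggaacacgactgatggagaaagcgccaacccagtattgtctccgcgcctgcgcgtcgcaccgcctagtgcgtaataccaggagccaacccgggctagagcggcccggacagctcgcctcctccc
Mrpl53: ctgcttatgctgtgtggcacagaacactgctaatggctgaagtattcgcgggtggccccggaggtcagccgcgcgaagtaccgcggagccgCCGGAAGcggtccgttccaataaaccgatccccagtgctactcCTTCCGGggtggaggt
Mrpl33: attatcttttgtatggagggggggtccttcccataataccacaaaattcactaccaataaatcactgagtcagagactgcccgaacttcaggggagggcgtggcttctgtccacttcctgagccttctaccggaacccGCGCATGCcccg
Mrpl52: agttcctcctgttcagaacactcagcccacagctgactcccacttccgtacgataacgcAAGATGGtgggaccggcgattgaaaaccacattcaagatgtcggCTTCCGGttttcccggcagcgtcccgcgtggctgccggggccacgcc

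The motifs marked in capitals lie near the start of each gene, 59 and 16 bases before it in Mrpl53, 12 in Mrpl33, and 91 and 47 in Mrpl52. A match is a run of letters and not a measured binding site.

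Other genes of mitochondrial translation were described from fixed lists. Of 6 mitoribosomal proteins whose symbols fall outside the rule, 4 were called higher and 0 lower, with a median of 0.29, where 12.0% of all genes tested were called higher. With the longest-transcript trend removed 1 of them was called (median 0.08), and with the median coding trend removed 2 (median 0.14), where 7.96% and 7.97% of all genes were called higher. Chchd1 (mS37) was at 133, 145, 136 and 147 in wild-type and 218, 150, 214 and 168 in Mbd2-/- libraries, without overlap (0.40 ± 0.11 SE, limma adjusted p = 0.0205). Gadd45gip1 (0.34 ± 0.09 SE, limma adjusted p = 0.011), Ict1, a peptidyl-tRNA hydrolase of the large subunit (0.31), and Aurkaip1 (0.28) were also called, and with 1 library left out the calls of Chchd1, Gadd45gip1, Ict1 and Aurkaip1 held in 5, 8, 2 and 4 of 8 fits. With the longest-transcript trend removed Gadd45gip1 alone was called (0.29, limma adjusted p = 0.018), Ict1 came to 0.27 (0.052), and Chchd1 and Aurkaip1 came to 0.05 and 0.06. Dap3, the GTP-binding protein of the small subunit head, gave 0.04 and Ptcd3 0.09, neither of them called.

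In the lists of factors that work with the ribosome, the shares called higher, 11.1%, 9.52% and 7.69%, lay near the 12.0% of all genes tested. Of 9 translation factors 1 was called higher (median 0.08), the release factor Mtrf1 (0.35, limma adjusted p = 0.039), a call kept in 2 of the 8 fits that left out 1 library and lost with DESeq2 (adjusted p = 0.10), the replicate block (0.060), no filter on low values (0.055) and either length trend removed (0.20 and 0.096). Of 21 mitochondrial aminoacyl-tRNA synthetases and related enzymes, which charge tRNAs, 2 were called higher (median 0.01), Fars2 (0.30, limma adjusted p = 0.011) and Iars2 (0.20, limma adjusted p = 0.021), called in 8 and 5 of the 8 fits that left out 1 library. Of 26 assembly, rRNA and mRNA factors, 2 were called higher and 1 lower (median 0.08). The higher ones were Malsu1 (0.46, limma adjusted p = 0.0195) and Mpv17l2 (0.40, limma adjusted p = 0.0078), both of which act in large subunit assembly, called in 4 and 8 of those 8 fits. With the longest-transcript trend removed Malsu1 stayed at 0.43 (limma adjusted p = 0.025) and Mpv17l2 fell short of the threshold at 0.14 (0.32). Lrpprc, which stabilises mitochondrial mRNAs, was lower by limma (-0.16, adjusted p = 0.048), at 1262, 1181, 1139 and 1272 in wild-type and 1080, 1116, 1081 and 1067 in Mbd2-/- libraries. Its call was lost in 6 of the 8 fits that left out 1 library, with the replicate block (adjusted p = 0.068), voom (0.051), TMM scaling (0.0501), no filter (0.066), no trend or robust moderation (0.086), and either length trend removed (0.19 and 0.37). The longest transcripts of these 3 lists had medians of 2623, 3322 and 2506 bases, against 3187 over all genes tested, and a difference between the lists was not tested. Genes encoded in mitochondrial DNA were not analysed here.

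**Figure D5:**
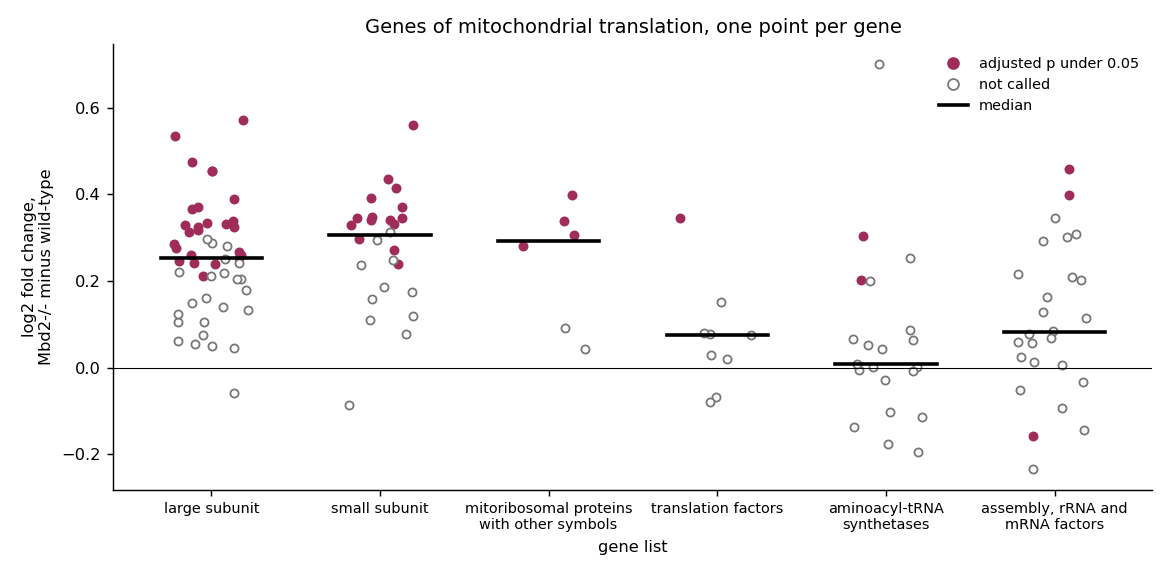
Log2 fold change (Mbd2-/- minus wild-type) of each gene of mitochondrial translation, by list, with a bar at each list's median and filled points where the limma adjusted p was under 0.05. Mitoribosomal proteins of both subunits and those with other symbols have medians of 0.25 to 0.31, and the 3 lists of factors have medians of 0.01 to 0.08.

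Over the 8 libraries, the genes outside the 77 whose log2 counts followed the mean of the 77 most closely included Sec61b, of the endoplasmic reticulum translocon (Pearson r = 0.993), Tceb2 (0.993), and Rpl36, a cytosolic ribosomal protein gene (0.990). The median r of a mitoribosomal gene with that mean was 0.857. All points come from the same 8 libraries, 4 of each genotype, and the values are given without a test.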

How the data were processed

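RNA from whole hippocampi was depleted of ribosomal RNA with RiboMinus and sequenced on a HiSeq 2500 as 100 bp paired-end reads. The authors removed duplicate reads, aligned the rest with STAR (mm9) and tested genotype with DESeq2 (versions and counting options are not given in the sources used here). The deposited table gives, per gene, a signal that is a read count divided by a size factor, called normalized count here, for each of 8 libraries. It also holds the authors' mean and their comparison, a log2 fold change with its standard error, a Wald statistic (score) and p-values with adjusted p-values, none of which was used. Whole reads were recovered for 100% of values within 0.01 of a read, which gave the depths. Intervals cover the spread between libraries, not counting error alone, and depth limited the genes with few counts most.

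Members and gene lists were chosen with earlier results of these data known. Of 19201 genes, the 14504 whose mean normalized count reached 10 were tested with limma 3.58.1 (R 4.3.3; trend, robust) on log2(normalized count + 1), genotype only, with Benjamini-Hochberg adjustment over all of them and a threshold of 0.05. The + 1 makes fold changes of low genes slightly too small. Libraries were mapped to genotype by column names matched to sample titles. Library pairs within a genotype differed by 1.51 to 6.45 times their counting variance over 12164 genes, so none was counted as a duplicate. The script was tested on simulated data. Lengths, exon overlaps and positions came from GENCODE vM1 (mm9), matched by symbol or synonym for 18102 genes (94.3%), and promoters from RefSeq (GRCm38.p6). Alternatives were other scalings, filters, pseudocounts and moderation, a test against a 1.2-fold change, edgeR 4.0.16, DESeq2 1.42.0 and voom on recovered reads, a replicate block, removal of length trends (loess per library), and leaving out each library. Genes named were Mrpl12 and its stalk partners, the 6 largest and 6 smallest fold changes, the 4 highest and 4 lowest per kb, the S18 paralogs and Mrps30, the 3 widest gaps of Mbd2-/- replicate 4 on either side, the smallest p of each list with any called lower, and the 5 genes most like the mean, some of which are not reported here. Further genes were named after their values were seen: those called with both length trends removed, those with wide exon overlap, and further genes of the lists.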

Additional observations from a re-analysis of the deposited data

Results flagged for a closer look

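In each genotype, the 4 libraries of every one of the 77 genes were checked for a library far from the other 3 by Dixon's ratio of gap to range, and 3 of 154 groups exceeded its 95% critical value, fewer than the 1 in 20 that chance gives. Mrpl35 had wild-type replicate 1 at 366 normalized counts, the highest of a group whose other 3 libraries lay at 290 to 300. Mrpl41 had Mbd2-/- replicate 4 at 421, the lowest, with the other 3 at 513 to 532. Mrpl52 had Mbd2-/- replicate 4 at 244, the lowest, with the other 3 at 312 to 319.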

How the results depend on the processing

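The count of 42 genes called higher was 37 to 42 with TMM or upper-quartile scaling, no filter, a minimum of 50, pseudocounts of 0.5 and 8, edgeR, DESeq2 and voom, and 0 were called lower in any fit. Replicate numbers did not pair the libraries (correlations of deviations -0.10, -0.06, 0.07 and 0.04), and with the replicate block 42 were again higher. Without trend and robust moderation 27 were higher (14 Mrpl), and in the test beyond 1.2-fold 0 (0 Mrpl, 0 Mrps). With the longest-transcript trend removed, 12 were higher (7 Mrpl, 5 Mrps; median 0.076), and with the median coding trend removed, chosen after seeing the data, 12 (8 Mrpl, 4 Mrps; median 0.13). The cause was not tested, and 7.96% and 7.97% of all genes were called higher in these fits. Leaving out 1 library gave 22 to 55 higher, 12 to 34 Mrpl, 10 to 21 Mrps and medians of 0.24 to 0.32. Over all genes the share called higher was 17.9% without Mbd2-/- replicate 4 and is not given here for the other fits.

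Of 340 values of named genes under the settings of the first 2 sentences, 0 reversed, 11 lost and 1 gained a call. The sign turned with the longest-transcript trend removed for Mrpl39 (-0.022), Mrpl21 (-0.17), Mrpl52 (-0.040), Mrpl41 (-0.043), Mrps18b (-0.16), Mrps30 (-0.047) and Mrpl14 (-0.13), and with the median coding trend removed for Mrpl35 (0.0051), Mrpl21 (-0.11), Mrpl37 (-0.047), Mrpl45 (-0.044), Mrps18a (-0.014), Mrps18b (-0.11) and Mrpl14 (-0.0055). With 1 library left out it turned in at least 1 fit for Mrpl35 (-0.092 to 0.019), Mrpl39 (-0.030 to 0.099), Mrpl21 (-0.0032 to 0.11) and Mrps18b (-0.054 to 0.21). Of these named genes Mrpl41 and Mrpl52 had been called, and over all 77 another 3 called genes turned with the longest-transcript trend removed, Mrps16 (-0.020), Mrpl27 (-0.070) and Mrpl55 (-0.0044), and 0 with the median coding trend removed. Depth limited low genes most: Mrpl23, at 31.0 to 51.1 normalized counts, was not called with a log2 fold change of 0.30 (95% interval -0.05 to 0.64).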

Other observations

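Head-to-head neighbours were counted after the data had been seen. In the mm9 annotation 25 of the 77 mitoribosomal genes (32.5%) have the start of a protein-coding gene within 500 bases on the opposite strand, as do 11.7% of the 13737 tested protein-coding genes. Of the 21 tested partners that are not mitoribosomal genes, 4 were called higher by limma (Mitd1, Psma2, Ndufb5 and Fau) and 1 lower (Gga3). The median log2 fold change of the partners was 0.05. Of the 25 mitoribosomal genes 12 were called higher, and 10 of the 21 that face such a partner, where 12.0% of all genes tested were called higher and 10.0% lower. Gga3 (-0.35, adjusted p = 0.00085) faces Mrps7 (0.35, adjusted p = 0.0056), with starts 126 bases apart, and the pair moved in opposite directions by limma. The longest transcripts had a median of 3488 bases in the partners and 1722 in the mitoribosomal genes of these pairs. Mrpl46 and Mrps11 face each other with starts 412 bases apart, and neither was called (0.22 and 0.31, limma adjusted p = 0.077 and 0.062).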
